A study of Homo sapiens with 60 samples.

Results

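Mitosis and G2/M genes are the genes whose transcripts build up while a cell finishes copying its DNA and prepares to divide. A set of 44 such genes was followed, taken by gene symbol from well-known roles in cell division. No measured value entered the rule, but earlier results of these data were known when the set was chosen. All 44 were found among the 60675 gene identifiers of the deposited table, and all 44 passed the low-count filter that left 17268 genes for testing. They comprised 7 genes of the cyclin, CDK and CDC25 group, 7 mitotic kinases and chromosomal passengers, 2 transcription factors, the proliferation markers MKI67 and TOP2A, 7 centromere and kinetochore genes, 7 kinesins, 7 spindle proteins, 2 cytokinesis genes and 3 activators or substrates of the anaphase-promoting complex.

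RNA came from A549, an established line of human lung carcinoma cells that divides in culture, after 24 h with vehicle or with a hot-water extract of a medicinal herb or herb mixture. Citri Unshius Pericarpium, Cimicifugae Rhizoma, Bupleuri Radix, Yijung-tang and Banhasasim-tang were each given at 500, 100 and 20 µg/mL (high, medium and low dose), and Aconiti Lateralis Radix Preparata, which is prepared aconite root, at 360, 72 and 14.4 µg/mL, the lower series being used where the extract's IC20 fell under 500 µg/mL, with 3 libraries at each dose. Bojungikgi-tang, a further mixture, had 1 library each at 500, 100 and 20 µg/mL. The 3 vehicle libraries carry 0.1% DMSO in their labels, whereas the design note names 2%, and no DMSO content is given for the extract samples. Extracts are named below by the leading word of their names.

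Sample codes place Citri and Cimicifugae in set 5, Bupleuri and Aconiti in set 6, Yijung and Banhasasim in set 7 and vehicle in a set of its own, so that set and extract cannot be told apart in a comparison with vehicle. All comparisons with vehicle share the same 3 libraries. Nothing in the labels says that the 3 libraries of a group were grown as separate cultures, so the p-values speak only of the spread among these libraries. Total counts ran from 17793635 to 30188167 per library with a median of 25758890. All 10 markers of A549 and lung epithelial carcinoma, among them KRT8 and ALDH1A1, had a median above 1 CPM (counts scaled to library size, in the usual CPM unit). Of 10 markers of other cell types 7 stayed under 1 CPM in every library and CD3E was at 0 in all of them, while CD68, COL1A1 and COL1A2 rose above it. The 10 markers summed to between 36.8 and 40.0 CPM in vehicle and between 26.6 and 31.4 CPM at the high dose of Aconiti. In RNA from whole cultures, fewer cells in division and less of a transcript in each dividing cell cannot be told apart.

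As background, entry into mitosis is driven by cyclin-dependent kinase 1 bound to cyclin A or B and released by CDC25 phosphatases. Polo-like and Aurora kinases, kinesins and kinetochore proteins then build the spindle and attach chromosomes to it, and the anaphase-promoting complex ends mitosis by having cyclins and securin destroyed. Transcription of these genes is periodic. In resting and G1 cells the MuvB core, joined to p130 or p107 and E2F4 as the DREAM complex, holds many of them down through a promoter element called the cell cycle genes homology region, with the letters TTTGAA or close to them, and later in the cycle MuvB joined to B-MYB (the product of MYBL2) and FOXM1 activates them. Many of the same promoters carry several CCAAT boxes, the element bound by NF-Y.

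RefSeq windows (GRCh38.p14) were at hand for 38 of the 44 genes, and the 250 bases before the start were searched for CCAAT and for TTTGAA on either strand (written ATTGG and TTCAAA when on the other one). CCAAT was present in 29 of 38 windows, against 33.0% of 27305 genes with a window, and it stood at 2 or more places in 19 of 38, against 10.0%. TTTGAA was present in 20 of 38, against 13.6%, and 18 of 38 windows held both, against 4.85%. The 27305 genes were not limited to those tested for expression. In 33 of the 38 windows the bases just after the start lay in a GENCODE transcript of that gene. The 130 bases before the start are printed for 7 genes, 5′ to 3′ on the strand of the gene, with these matches in capitals. Gene coordinates given below come from GENCODE 29, and the RefSeq start can lie inside them, as for TOP2A and PLK1. CCNB2 and PLK1 carry the elements in a compact form, TOP2A had the highest level of the set, MKI67 and KIF20A were among the largest falls, DLGAP5 was called at more than 1 dose of Aconiti, and CENPA was not called at any. A match describes letters and is no evidence of binding.
CCNB2 (chr15:59105016-59105145, plus strand): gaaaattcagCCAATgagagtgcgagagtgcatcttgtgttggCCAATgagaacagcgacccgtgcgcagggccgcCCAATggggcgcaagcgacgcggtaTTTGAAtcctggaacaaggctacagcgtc
PLK1 (chr16:23678759-23678888, plus strand): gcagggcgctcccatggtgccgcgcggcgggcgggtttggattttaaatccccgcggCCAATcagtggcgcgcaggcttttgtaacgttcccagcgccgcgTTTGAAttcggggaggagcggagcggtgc
MKI67 (chr10:128126424-128126553, minus strand): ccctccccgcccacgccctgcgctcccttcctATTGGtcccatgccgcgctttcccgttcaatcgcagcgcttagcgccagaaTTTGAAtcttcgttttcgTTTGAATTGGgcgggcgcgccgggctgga
TOP2A (chr17:40417897-40418026, minus strand): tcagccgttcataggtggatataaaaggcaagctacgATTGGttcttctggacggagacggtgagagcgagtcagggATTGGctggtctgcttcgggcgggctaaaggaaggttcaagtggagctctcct
KIF20A (chr5:138178982-138179111, plus strand): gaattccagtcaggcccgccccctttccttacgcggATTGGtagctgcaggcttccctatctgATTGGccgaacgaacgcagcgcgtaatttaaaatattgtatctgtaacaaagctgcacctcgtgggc
DLGAP5 (chr14:55191586-55191715, minus strand): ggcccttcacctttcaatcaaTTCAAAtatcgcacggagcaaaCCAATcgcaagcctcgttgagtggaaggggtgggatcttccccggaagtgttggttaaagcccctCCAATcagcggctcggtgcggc
CENPA (chr2:26785926-26786055, plus strand): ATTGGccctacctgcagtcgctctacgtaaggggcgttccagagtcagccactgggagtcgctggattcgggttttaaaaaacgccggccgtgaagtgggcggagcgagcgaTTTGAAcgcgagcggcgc
In MKI67 the TTTGAA nearer the start and an ATTGG overlap in a shared A. Of the 8 genes not called at the high dose of Aconiti, CENPA, CKS2 and CDC20 held both matches, PTTG1 and AURKB held CCAAT alone, CDC25B and CDC25C held neither, and UBE2C had no window.

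Per kilobase of the longest transcript, the set spanned a wide range of levels in vehicle. TOP2A, the DNA topoisomerase that untangles sister chromosomes, stood highest at 184.1 CPM per kb. CKS2, a small subunit of CDK complexes, followed at 165.0 and CCNB1, cyclin B1, at 110.7 CPM per kb. CDC25C and NDC80 stood lowest at 7.17 and 7.14 CPM per kb. Transcript length ranged from 0.613 kb for CKS2 to 12.7 kb for MKI67. Summed over the 44 genes, vehicle held 6923 ± 134 CPM (SD, n = 3), that is 0.692% of the library size after the scaling described below.

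Most of the set was lower at the high dose of Aconiti, whereas with the other replicated extracts at most 1 member was called at any dose. Of the 44 genes 36 fell against vehicle and 0 rose (edgeR's quasi-likelihood test, Benjamini-Hochberg adjusted p under 0.05 over all genes tested), while 15.7% of all genes tested were called lower and 32.7% were called in either direction. The median log2 fold was -0.51 for the set and -0.00 for all genes tested. In 40 of the 44 genes all 3 Aconiti high libraries lay below all 3 vehicle libraries, which held for 20.7% of all genes tested. The summed level was 7052, 6930 and 6786 CPM in the vehicle libraries and 4787, 4517 and 4593 CPM at the high dose of Aconiti, or 66.9% of the vehicle mean. DESeq2 also called 36 genes, for which no share of all genes is given here.

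**Figure D1:**
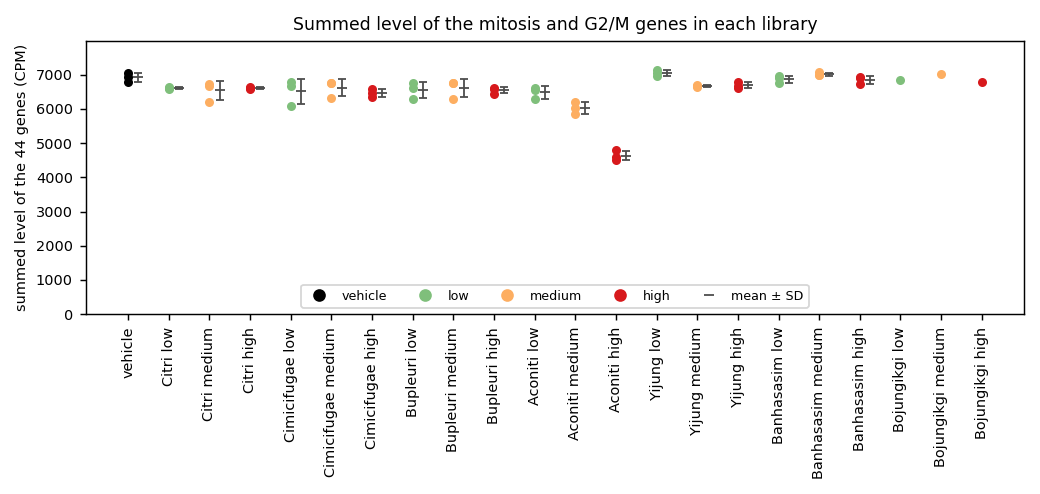
Summed level of the 44 genes in CPM (vertical axis, from 0) for every library, grouped by extract and dose, with bars for the mean ± SD of groups with 3 libraries. The 3 libraries of the high dose of Aconiti lie between 4517 and 4787 CPM, below every other library, and those of the medium dose between 5842 and 6203 CPM.

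The proliferation markers both fell. MKI67, the gene of the Ki-67 protein that coats mitotic chromosomes (ENSG00000148773, chromosome 10, 128096659 to 128126385, GRCh38), stood at 576, 523 and 450 CPM in the vehicle libraries and at 273, 153 and 158 CPM in the Aconiti high libraries. No library of the high dose reached the lowest vehicle library, and replicate 1 was the highest of the 3. The log2 fold was -1.41 ± 0.28 (standard error), with adjusted p = 9.1e-05, the largest in the shared model. With the length covariate described below, SPC25 (-1.02) and ASPM (-0.94) fell more than MKI67 (-0.88). TOP2A (ENSG00000131747, chromosome 17, 40388516 to 40417950) stood at 1087, 1078 and 1014 CPM in vehicle and at 749, 632 and 663 CPM at the high dose. The groups were again apart, and the log2 fold was -0.64 ± 0.07 (adjusted p = 4.23e-10).

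**Figure D2:**
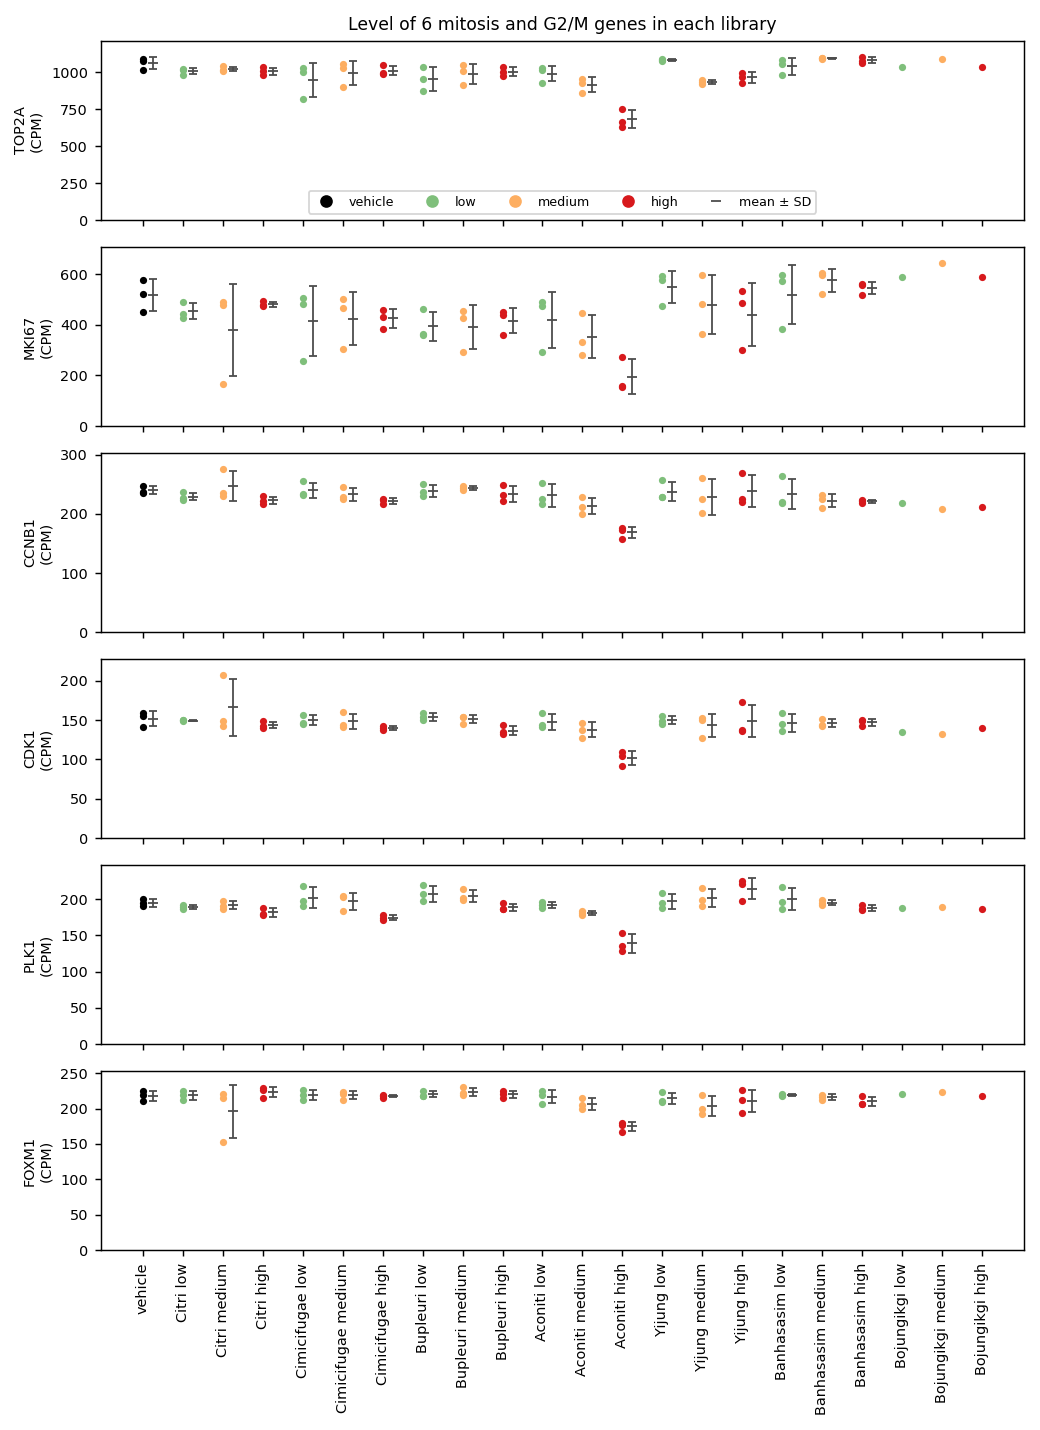
Level in CPM (vertical axes, from 0) of TOP2A, MKI67, CCNB1, CDK1, PLK1 and FOXM1 in each library, grouped by extract and dose, with the mean ± SD of groups with 3 libraries beside the points. The 3 points of the high dose of Aconiti lie below the 3 vehicle points in all 6 genes, and 1 library of the medium dose of Citri lies apart in MKI67 at 168 CPM.

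Among the 7 genes of the cyclin, CDK and CDC25 group, 4 fell. CCNB1 (ENSG00000134057, chromosome 5, 69167010 to 69178245) went from 235, 238 and 248 CPM in vehicle to 158, 172 and 176 CPM, a log2 fold of -0.51 ± 0.08 (adjusted p = 2.45e-06). CDK1, the kinase that cyclin B1 binds (ENSG00000170312, chromosome 10, 60778331 to 60794852), went from 141, 155 and 160 CPM to 91.5, 104 and 109 CPM, a log2 fold of -0.58 ± 0.09 (adjusted p = 2.49e-06). In both genes the highest Aconiti library lay below the lowest vehicle library. Cyclin A2 (CCNA2) and cyclin B2 (CCNB2) also fell, by 0.68 ± 0.06 and 0.34 ± 0.07 on the log2 scale. The remaining 3 were not called. CKS2 had a log2 fold of -0.36 (95% interval -0.70 to -0.01, adjusted p = 0.115). For the phosphatases that switch CDK1 on, the log2 folds were -0.17 (-0.39 to 0.04) for CDC25C and 0.02 (-0.06 to 0.10) for CDC25B.

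Of the mitotic kinases and chromosomal passengers 6 of 7 fell. PLK1, the polo-like kinase of mitotic entry and spindle assembly (ENSG00000166851, chromosome 16, 23677656 to 23690367), went from 194, 190 and 200.5 CPM to 129, 154 and 135 CPM, with a log2 fold of -0.48 ± 0.06 (adjusted p = 1.61e-08). AURKA, the Aurora kinase of centrosomes and spindle poles (ENSG00000087586, chromosome 20, 56369389 to 56392337), went from 167, 168 and 171 CPM to 104, 108 and 111 CPM. Its spread was small in both groups, and its log2 fold of -0.65 ± 0.05 had the smallest adjusted p of the set, 4.12e-14. The spindle checkpoint kinases TTK and BUB1 fell by 0.67 ± 0.08 and 0.63 ± 0.08, the checkpoint protein gene BUB1B by 0.55 ± 0.09 and the passenger gene BIRC5, which encodes survivin, by 0.51 ± 0.11. AURKB, the Aurora kinase of the chromosomal passenger complex, was not called (log2 fold -0.23, 95% interval -0.43 to -0.02, adjusted p = 0.0875).

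FOXM1, the transcription factor of G2/M genes (ENSG00000111206, chromosome 12, 2857681 to 2877155), went from 225, 211 and 219 CPM to 180, 177 and 167 CPM, with a log2 fold of -0.32 ± 0.07 (adjusted p = 0.000418). The 2 groups did not overlap. MYBL2 fell by 0.24 ± 0.09 (adjusted p = 0.0332), but 1 Aconiti library, at 161 CPM, lay within the vehicle range of 157 to 165 CPM. The call of MYBL2 was lost when any library but Aconiti high replicate 2 was left out (adjusted p up to 0.221), and that of SGO1, a protector of cohesin described below, without vehicle replicate 3 (0.0892) or Aconiti high replicate 1 (0.11) or 2 (0.0842).

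Of 7 centromere and kinetochore genes 6 fell. CENPF, a large protein of the outer kinetochore (ENSG00000117724, chromosome 1, 214603195 to 214664588), went from 308, 301 and 257 CPM to 170, 101 and 115 CPM, a log2 fold of -1.17 ± 0.20 (adjusted p = 1.23e-05). CENPE, the kinesin of the kinetochore, fell by 0.84 ± 0.15. The NDC80 complex binds microtubule ends, and its 3 genes in the set all fell, SPC25 by 0.83 ± 0.11, NDC80 by 0.46 ± 0.08 and NUF2 by 0.44 ± 0.08. SGO1 fell by 0.23 ± 0.08. CENPA, the histone H3 variant of centromeres (ENSG00000115163, chromosome 2, 26764289 to 26801067), was the exception. Its vehicle libraries stood at 32.1, 33.2 and 32.8 CPM and its Aconiti high libraries at 31.1, 38.5 and 38.0 CPM. The groups overlapped, with a log2 fold of 0.13 (95% interval -0.09 to 0.36, adjusted p = 0.391).

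All 7 kinesins fell. KIF20A, which works in the central spindle during cytokinesis (ENSG00000112984, chromosome 5, 138178719 to 138187715), went from 82.9, 83.1 and 76.5 CPM to 40.2, 40.9 and 40.6 CPM, with a log2 fold of -0.99 ± 0.10 (adjusted p = 6.03e-11). KIF11, the motor that pushes spindle poles apart (ENSG00000138160, chromosome 10, 92593286 to 92655395), went from 175, 173 and 170 CPM to 98.2, 75.6 and 91.5 CPM, with a log2 fold of -0.96 ± 0.10 (adjusted p = 1.78e-10). Both genes were at about 50.2% and 51.3% of their vehicle means. The log2 folds of KIF14, KIF18B, KIF23, KIF4A and KIF2C ran from -0.87 to -0.26, KIF2C, the microtubule depolymerase at centromeres, having the smallest change.

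All 7 spindle proteins fell as well. ASPM, a spindle-pole protein (ENSG00000066279, chromosome 1, 197084128 to 197146694), went from 162, 154 and 139 CPM to 80.1, 43.4 and 52.6 CPM, with a log2 fold of -1.37 ± 0.24 (adjusted p = 1.12e-05). DLGAP5 (also HURP, a stabilizer of kinetochore fibres) fell by 0.84 ± 0.07, CKAP2L by 0.70 ± 0.12 and NUSAP1 by 0.68 ± 0.06. TPX2, the activator of Aurora A, PRC1, the bundler of the central spindle, and HMMR fell by 0.44 ± 0.04, 0.44 ± 0.06 and 0.43 ± 0.06. The cytokinesis genes ANLN (anillin, ENSG00000011426, chromosome 7, 36389806 to 36453791) and ECT2 (the activator of RhoA at the cleavage furrow) both fell. ANLN went from 225, 222 and 212 CPM to 123, 92.1 and 105 CPM, a log2 fold of -1.04 ± 0.11 (adjusted p = 6.48e-10), and ECT2 fell by 0.35 ± 0.07.

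Of the 3 activators and substrates of the anaphase-promoting complex 0 were called in the shared model. The log2 folds were -0.33 (95% interval -0.65 to -0.01) for PTTG1, which encodes securin, -0.21 (-0.46 to 0.03) for UBE2C, the ubiquitin-conjugating enzyme of the complex, and -0.11 (-0.29 to 0.06) for CDC20, its mitotic activator. With the length covariate all 3 fell, by 0.65 ± 0.06, 0.46 ± 0.05 and 0.28 ± 0.05.

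**Figure D3:**
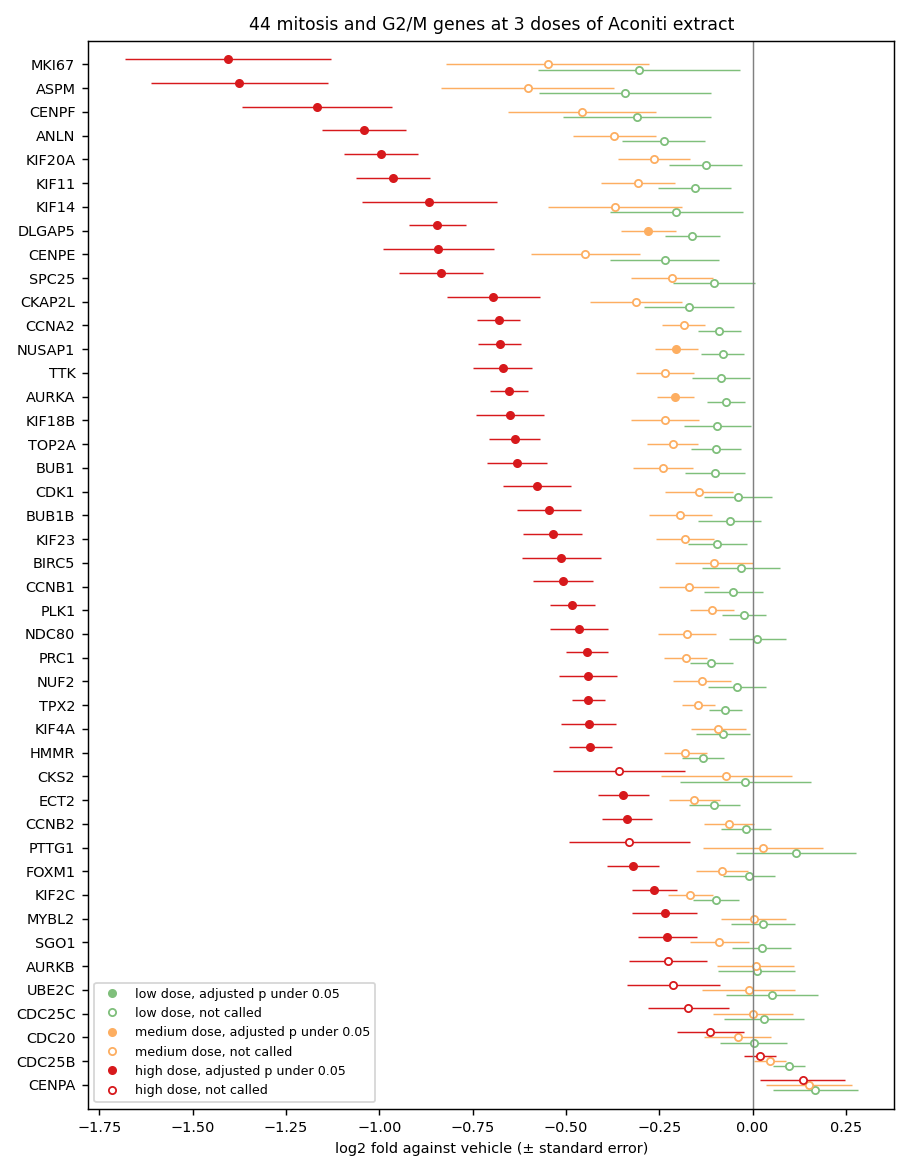
Log2 fold against vehicle (horizontal axis, bars ± standard error) of each of the 44 genes at the low, medium and high dose of Aconiti, ordered by the high dose; filled points had an adjusted p under 0.05. At the high dose 36 points are filled, from -1.41 for MKI67 to -0.23 for SGO1, and at the medium dose 3 are.

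Measures taken over whole libraries differed from vehicle in some or all libraries of the high dose of Aconiti. Whether these differences are technical or a response of the cells was not tested. Transcripts from mitochondrial DNA took 16.48% to 18.95% of counts there and 7.91% to 8.54% in vehicle, and after mitochondrial genes were removed before scaling the count of falling genes was still 36. The balance of long against short transcripts (mean log2(CPM + 1) of genes over 6 kb less that of genes under 1.5 kb) was 0.28 to 0.50 in vehicle and 0.39, -0.24 and -0.15 in replicates 1, 2 and 3 of the high dose. Replicate 1 thus lay within the vehicle range of balance. In that library all 44 genes lay below all 3 vehicle libraries, against 37.9% of all genes tested, and the summed level was 69.1% of the vehicle mean. In replicates 2 and 3 the count was 40 and 42 genes, against 40.2% and 38.6% of all genes tested.

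Within the set the fall followed transcript length. The 5 genes over 6 kb (MKI67, ASPM, CENPF, CENPE and KIF14) all fell, with a median log2 fold of -1.17, while 31.3% of all genes of that length were called lower and their median was -0.22. Of the 33 genes between 1.5 and 6 kb 30 fell, with a median of -0.51, against 17.3% of all such genes and a median of 0.02. Among the 6 genes under 1.5 kb only SPC25 fell and the median was -0.28, against 2.83% and a median of 0.23 over all genes of that length. Across the 44 genes the log2 fold and the log2 length had Pearson's r of -0.66, a description over genes measured in the same libraries. With the balance as a covariate in the model, r was -0.18 and the medians of the 3 classes, longest to shortest, were -0.79, -0.49 and -0.55. In that model 42 of 44 genes were lower, all but CDC25B and CENPA, with a median of -0.52. The 15.7% of all genes called lower belongs to the shared model, and no such share is given here for the covariate model. MKI67 fell by 0.88 ± 0.05 there, against 1.41 without the covariate, and the short genes CKS2, PTTG1 and UBE2C fell by 0.70 ± 0.07, 0.65 ± 0.06 and 0.46 ± 0.05.

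**Figure D4:**
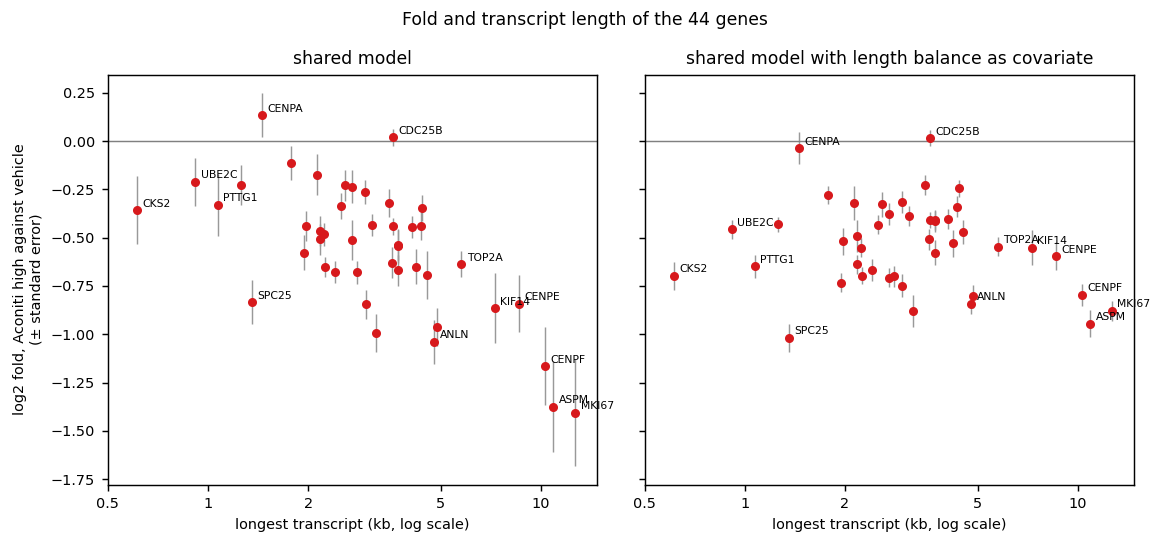
Log2 fold of each of the 44 genes, Aconiti high dose against vehicle (vertical axis, bars ± standard error), by length of its longest transcript in kb (log axis), in the shared model and with the balance of long against short transcripts as a covariate. In the left panel the folds fall from short to long genes (r = -0.66 across 44 genes), and in the right panel 42 genes are called lower with r = -0.18.

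The lower doses of Aconiti showed smaller changes. At the medium dose 3 of 44 genes fell and 0 rose, against 0.654% of all genes tested called lower, and the median log2 fold was -0.18. The 3 were AURKA, DLGAP5 and NUSAP1. AURKA stood at 144, 146 and 149 CPM, below all 3 vehicle libraries, with a log2 fold of -0.21 ± 0.05 (adjusted p = 0.0127). DLGAP5 (ENSG00000126787, chromosome 14, 55148112 to 55191678) stood at 72.0, 66.8 and 68.0 CPM against 86.8, 84.9 and 79.2 CPM in vehicle, with a log2 fold of -0.28 ± 0.07 (adjusted p = 0.028). NUSAP1, a spindle microtubule binder (ENSG00000137804, chromosome 15, 41332694 to 41381050), stood at 78.6, 81.4 and 74.8 CPM against 87.2, 90.2 and 93.4 CPM, with a log2 fold of -0.20 ± 0.06 (adjusted p = 0.0434). All 3 genes were without overlap between the groups.

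Many more members lay below vehicle at the medium dose without passing the threshold. In 29 of 44 genes all 3 medium libraries were below all 3 vehicle libraries, against 12.7% of all genes tested, and 26 had an unadjusted p under 0.05, all of them lower, against 13.9% of all genes tested in either direction. The count of calls rested on the fit, and the 0.654% of all genes called lower belongs to the shared model alone. DESeq2 called 13, the fit of the compared groups alone 18 and the model with the length balance 23, all lower, whereas leaving out any 1 of the 6 libraries left 0 (without medium replicate 2) or 1 (without any of the other 5), and omitting the low-count filter left 0. The balance was 0.34, 0.11 and -0.04 in the 3 medium libraries, below vehicle in replicates 2 and 3, and mitochondrial transcripts took 13.5% to 15.2% of counts. At the low dose 0 genes were called by edgeR, against 0.0695% of all genes tested. Unadjusted p-values under 0.05 numbered 4, against 4.26% of all genes tested, and DESeq2 called 0. The median log2 fold was -0.08, and the lowest was -0.34 ± 0.23 for ASPM.

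From vehicle through the low and medium to the high dose of Aconiti the group mean fell at each step in 34 of 44 genes, against 18.1% of all genes tested. MKI67 had means of 516 ± 63.6, 418 ± 110, 353 ± 83.9 and 195 ± 68.0 CPM (SD, n = 3) in that order, and TOP2A of 1060 ± 40.1, 991 ± 53.6, 914 ± 50.5 and 682 ± 60.8 CPM. The steps from vehicle to the low dose lay within the spread of the libraries in both genes. The 10 genes without a fall at each step were CDC25B, CDC25C, AURKB, MYBL2, CENPA, NDC80, SGO1, CDC20, UBE2C and PTTG1. With the other extracts the count of genes with a fall at each step was 1 for Citri, 5 for Cimicifugae, 2 for Bupleuri, 2 for Yijung and 6 for Banhasasim, against 2.25%, 4.8%, 4.38%, 8.41% and 5.88% of all genes tested.

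Comparisons within set 6, which leave out vehicle and its set label, gave counts of the same order. All of them share the Aconiti high libraries with the comparison above. Against its own low dose, the high dose of Aconiti had 37 of 44 genes lower and 0 higher, against 11.3% of all genes tested called lower, with a median log2 fold of -0.47. MKI67 was lower by 1.10 ± 0.27 and TOP2A by 0.54 ± 0.07. The genes not called were CKS2, UBE2C, AURKB, CDC25C, CDC20, CDC25B and CENPA, so PTTG1, with all 44 log2 folds below 0, was called here and not against vehicle. Between the high and the medium dose 30 genes were lower and 0 higher, against 6.21%, with a median of -0.36. The fit of only these 2 groups called 11, for which no share of all genes is given here.

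Against the high dose of Bupleuri, the other extract of the set, Aconiti had 36 of 44 genes lower and 0 higher, against 11.8% of all genes tested, with a median log2 fold of -0.45. The doses differ, 360 µg/mL for Aconiti and 500 µg/mL for Bupleuri. KIF20A stood at 79.8, 76.6 and 83.4 CPM with Bupleuri, within or near its vehicle range, and was lower with Aconiti by 0.98 ± 0.10. CCNB1 stood at 249, 222 and 232 CPM with Bupleuri and was lower with Aconiti by 0.47 ± 0.08. The change from low to high dose was then compared between the extracts by an interaction term. It was lower for Aconiti in 30 of 44 genes and higher in 0, against 4.92% of all genes tested called lower, with a median difference of -0.43 on the log2 scale, and 19 genes remained called when Bupleuri low replicate 2 was left out. DESeq2 called 32 and the fit of only the 4 groups 18. The 4.92% belongs to the shared model with all its libraries, and no such share is given here for the other fits.

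The wider cell-cycle programme was read from lists that hold none of the 44 genes. Of 60 other mitosis genes 54 fell at the high dose of Aconiti and 0 rose, beside 15.7% of all genes tested called lower, with INCENP, the scaffold of the passenger complex, at -1.13 ± 0.16 and KNL1, a kinetochore scaffold, at -1.10 ± 0.20 on the log2 scale. Of 45 genes of DNA replication and G1/S 33 fell and 0 rose, beside the same 15.7%, among them CCNE2 (cyclin E2, -1.40 ± 0.13) and RRM2, a subunit of ribonucleotide reductase (-0.82 ± 0.04). RRM2 stood at 337.2 ± 0.178 CPM in vehicle and at 190.8 ± 5.70 CPM (SD, n = 3). Calls in 1 direction were thus found in both lists.

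Lists of controlling genes had calls in both directions, and over all genes tested 17% were called higher and 15.7% lower at this dose. Of 15 tested genes of cell-cycle inhibitors 6 rose and 4 fell. GADD45A, a stress-induced inhibitor of CDK1, rose from 15.9 ± 0.682 to 50.4 ± 3.34 CPM, a log2 fold of 1.66 ± 0.12 (adjusted p = 1e-14). CDKN1A, which encodes the CDK inhibitor p21, rose from 103 ± 5.67 to 191 ± 13.0 CPM, a log2 fold of 0.89 ± 0.09 (adjusted p = 3.97e-11). The INK4 inhibitors CDKN2C and CDKN2D fell by 1.13 ± 0.13 and 0.58 ± 0.18. Of 16 anaphase-promoting complex genes 3 rose and 3 fell, near the 32.7% of all genes called in either direction, with CDC16 higher by 0.40 ± 0.06 and CDC27 lower by 0.44 ± 0.12. Of 12 DREAM and MuvB genes 7 fell and 3 rose, with MYBL1 and RBL1 (p107) lower by 0.45 ± 0.13 and 0.41 ± 0.14 and E2F5 higher by 0.44 ± 0.08.

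With the other 5 replicated extracts few members were called, but the summed level was often below vehicle. It lay under the lowest vehicle library, at 6786 CPM, in 27 of 27 libraries of Citri, Cimicifugae and Bupleuri, which ranged from 6076 to 6781 CPM, in 5 of 9 of Yijung and in 2 of 9 of Banhasasim. Group means were 93.5% to 95.6% of vehicle for the first 3 extracts, 96.3% to 101.7% for Yijung and 98.95% to 101.3% for Banhasasim, against 93.6% at the low dose of Aconiti. All 3 libraries of the high dose lay below all 3 vehicle libraries in 18 of 44 genes for Citri, 20 for Cimicifugae, 15 for Bupleuri, 2 for Yijung and 9 for Banhasasim, against 7.85%, 14.3%, 12%, 11.7% and 9.35% of all genes tested. Since vehicle has a set label of its own, set and extract cannot be told apart here. The lowest sums of the 27 libraries were Cimicifugae low replicate 2 (6076 CPM) and Citri medium replicate 1 (6212.5 CPM). Their length balances were -0.34 and -0.79, against 0.28 to 0.50 in vehicle. The 3 Citri high libraries, with balances of 0.35 to 0.41, summed to between 6575 and 6636 CPM. What part of the lower sums goes with length balance was not tested.

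At the high dose 0 members were called for Citri, Bupleuri, Yijung and Banhasasim by edgeR, against 0.0463%, 0.712%, 7.09% and 0.185% of all genes tested in either direction. Unadjusted p-values under 0.05 numbered 1, 3, 3 and 1, and DESeq2 called 1, 0, 0 and 0. The median log2 folds were -0.07, -0.05, -0.01 and -0.02. Cimicifugae had 1 lower call, AURKA, against 0.88% of all genes tested. Its unadjusted p-values under 0.05 numbered 7, against 12.0% of all genes tested. AURKA stood at 148, 153 and 147 CPM there, below all 3 vehicle libraries, with a log2 fold of -0.18 ± 0.05 (adjusted p = 0.0493), and the call ended when any 1 of the 6 libraries was left out (adjusted p from 0.0954 to 0.19). On the 2 groups alone the count for Cimicifugae was 14, of which 12 were lower, and for Bupleuri 7, of which 6 were lower. The 0.88% and 0.712% of all genes belong to the shared model, so these counts have no background beside them.

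How large a change these groups could still hold is shown by the intervals. For TOP2A the 95% interval of the log2 fold at the high dose was -0.21 to 0.06 for Citri, -0.20 to 0.06 for Cimicifugae, -0.21 to 0.05 for Bupleuri, -0.27 to -0.00 for Yijung and -0.10 to 0.16 for Banhasasim. All 5 lie above the fold of -0.64 seen with Aconiti. For CCNB1 they ran from -0.27 at the lowest to 0.15 at the highest. MKI67, whose libraries spread most, had wider intervals, from -0.63 to 0.43 for Citri and from -0.85 to 0.22 for Bupleuri. Yijung had called 7.09% of all genes tested at its high dose, so its 0 of 44 members stood beside many changes elsewhere.

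At the medium dose of Yijung 1 member rose, ECT2 (ENSG00000114346, chromosome 3, 172750682 to 172821474), against 4.01% of all genes tested called higher. It stood at 287, 304 and 289 CPM against 247, 244 and 247 CPM in vehicle, with a log2 fold of 0.25 ± 0.07 (adjusted p = 0.0126), and the call ended without medium replicate 2 (0.0703) or without the low-count filter (0.0832). At the high dose of Yijung its log2 fold was 0.15 ± 0.07 (adjusted p = 0.204). At the remaining medium and low doses edgeR and DESeq2 called 0 members each. Unadjusted p-values under 0.05 numbered 11 (Citri), 3 (Cimicifugae), 5 (Bupleuri) and 0 (Banhasasim) at the medium doses. Over all genes tested such p-values made up 21.1%, 7.0%, 10.2% and 2.71%. For the low doses they numbered 1 (Citri), 8 (Cimicifugae), 3 (Bupleuri), 1 (Yijung) and 1 (Banhasasim). The shares of all genes tested were there 3.24%, 11.3%, 7.91%, 3.56% and 3.46%. All genes tested were called at 0.0174%, 0.0347%, 0% and 0% at those medium doses and at 0.00579%, 0.0116%, 0%, 0.0116% and 0% at those low doses.

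The medium dose of Citri holds a library that stood apart. Its replicate 1 had a length balance of -0.79, against 0.33 and 0.34 in replicates 2 and 3, and MKI67 at 168 CPM against 492 and 479 CPM. With all 3 libraries 0 members were called, but leaving out replicate 2 or 3 gave 8 (4 lower and 4 higher) and 10 (7 lower and 3 higher). Each of these counts rested on replicate 1 and 1 other library of this dose. The share of all genes called in those fits is not given here, so the 8 and 10 have no background beside them. Without replicate 1 the count was 0. The r of log2 fold with log2 length across the 44 genes was -0.88 at this dose and 0.30 with the balance as a covariate.

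**Figure D5:**
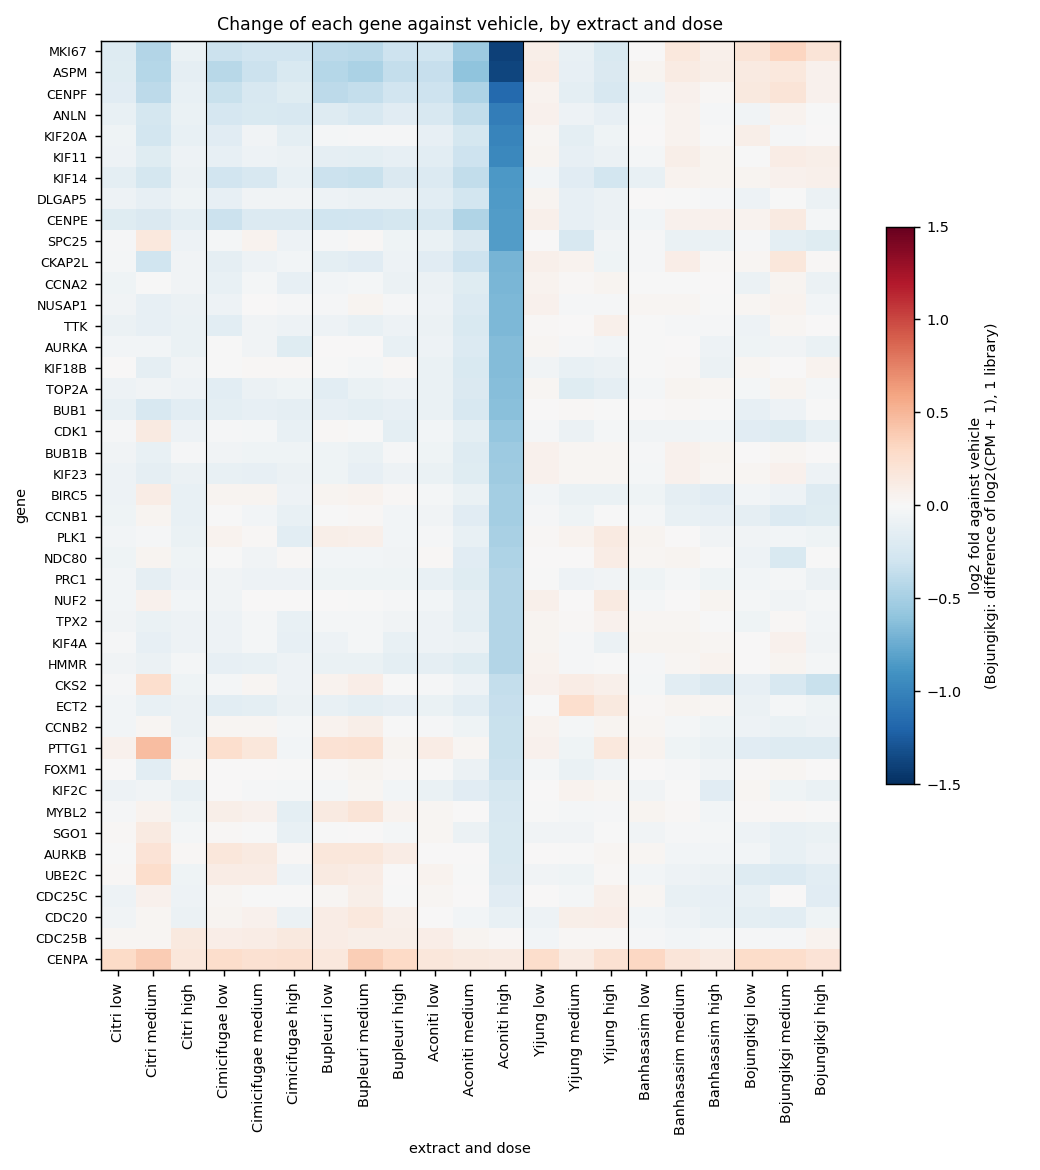
Log2 fold against vehicle (colour, blue lower and red higher) of each of the 44 genes (rows, ordered by the high dose of Aconiti) for every extract and dose (columns), with the difference of log2(CPM + 1) for the single libraries of Bojungikgi. The column of the high dose of Aconiti is blue from MKI67 (-1.41) to CDC20 (-0.11), with CDC25B (0.02) and CENPA (0.13) at its foot, while the columns of the high doses of the other 5 replicated extracts hold 1 called gene, AURKA with Cimicifugae.

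Between doses and between extracts other than Aconiti, 0 members were called from low to high dose by edgeR for Citri, Cimicifugae, Bupleuri, Yijung and Banhasasim, against 0.0232%, 1.34%, 0.353%, 4.93% and 0.127% of all genes tested. Unadjusted p-values under 0.05 numbered 1, 3, 2, 3 and 0, against 2.36%, 11.4%, 5.27%, 14.75% and 4.01% of all genes tested. DESeq2 called 2 for Cimicifugae and 0 for the rest. High against medium dose of Yijung also gave 0, against 1.08%, with 0 unadjusted, against 8.26%, and 0 by DESeq2. Between high doses, Citri against Cimicifugae gave 0 (0.689% of all genes tested, 0 unadjusted, 0 by DESeq2) and Yijung against Banhasasim 0 (4.79%, 4 unadjusted, 2 by DESeq2). Unadjusted p-values under 0.05 were found there in 6.71% and 17.1% of all genes tested. The changes from low to high dose did not differ by edgeR in any member between Citri and Cimicifugae (0.0579% of all genes tested, 0 unadjusted, 0 by DESeq2) or between Yijung and Banhasasim (1.31%, 2 unadjusted, 0 by DESeq2). The unadjusted shares of all genes tested were 4.12% and 9.20%.

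With Bojungikgi, where 1 library per dose allows no test, 0 of 44 genes differed from the vehicle mean by more than 0.5 in log2(CPM + 1) at any dose, against 0.967%, 1.08% and 1.14% of all genes tested at the high, medium and low dose. The median differences were -0.04, 0.00 and -0.03. The largest in size were CKS2 at the high dose (-0.33), MKI67 at the medium dose (0.32) and CENPA at the low dose (0.27). The summed level was 6797, 7033 and 6856 CPM at the high, medium and low dose, all within the vehicle range of 6786 to 7052 CPM. Single genes lay within their own vehicle range in 15, 10 and 17 of 44 cases, against 43.6%, 42.3% and 46.9% of all genes tested. They lay below it in 23, 18 and 20 cases and above it in 6, 16 and 7. The shares of all genes below and above are not given here, so these counts have no background beside them.

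Across the 19 replicated groups the genes differed in how closely their mean level followed the summed level of the other 43. Pearson's r of log2 means was highest for DLGAP5 (0.99) and KIF11 (0.99) and lowest for CDC25B (-0.15), CENPA (0.15) and CDC20 (0.20). Without the 3 Aconiti groups it was highest for ANLN and CENPE (0.92 each) and lowest for CDC25B (-0.86) over 16 groups. These values describe groups that share 1 scaling and differ in length balance, and AURKB and UBE2C, both under 1.5 kb, followed CDC25B at -0.65 and -0.53.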

How the data were processed

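RNA was sequenced in 60 libraries of A549 cells. The build GRCh38 (hg38) and the tools RSEM 1.3.3, STAR 2.7.3a, Trim Galore 0.6.5 and FastQC 0.11.9 are named, with no role given, per the submitters' processing notes; the annotation release and strand setting are not given in the sources used here, so genes that overlap an antisense gene are uncertain. The values the authors deposited are expected counts of RSEM without normalization; 9.37% of the values used were not whole and all were rounded. Of 269 sample columns 60 matched these samples and 209 were not used. Lengths and coordinates come from GENCODE 29 on GRCh38 (57055 of 60675 identifiers found).

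The members and lists were chosen with earlier results of these data known. All genes named belong to the 44, are called members of the other lists with the largest changes (up to 4 per list and comparison), or are cell type markers. Those given by library are TOP2A, MKI67, CCNB1, CDK1, PLK1, FOXM1, the 6 largest calls at the high dose of Aconiti, each called member where fewer than 6 were called, and CENPA, added after its values were seen.

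One edgeR quasi-likelihood model (edgeR 4.0.16, R 4.3.3) with TMM scaling, after filterByExpr had removed genes of low count, covered 57 libraries in 19 groups of 3 (38 residual degrees of freedom), with 32 comparisons, Benjamini-Hochberg adjustment within each and a threshold of 0.05. Bojungikgi stayed outside it. CPM of the members rest on library sizes scaled by TMM over all 60 libraries, whereas the length balance used total counts. Standard errors are the log2 fold over the square root of F, and 95% intervals are normal intervals from them. Alternatives were RLE size factors, DESeq2 1.42.0, no low-count filter, only the groups compared, the replicate number as a block, each library left out, the length balance as a covariate, mitochondrial genes removed, and the model less Citri medium replicate 1. On data simulated for Aconiti high against vehicle, over 17097 genes, 35 of 67 genes changed 1.25-fold, 57 of 67 changed 1.5-fold and 64 of 67 changed 2-fold were found, with 10 false calls. The simulation drew each gene independently and changed only genes over 10 CPM. It lacked the shifts of length balance seen between real libraries, so its rates need not hold for them. No replicates agreed within sampling noise (lowest chi-square per degree of freedom 2.03).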

Additional observations from a re-analysis of the deposited data

Results flagged for a closer look

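The change from the low to the high dose differed between Aconiti and Bupleuri, which share a set label, in 30 of the 44 mitosis and G2/M genes by an interaction term in edgeR's quasi-likelihood model (4.92% of all genes tested were lower by this term). In all 30 the change was more negative with Aconiti. The difference of the log2 folds was largest for MKI67 (-1.18 ± 0.38, adjusted p = 0.0418), ASPM (-1.11 ± 0.33, 0.0218), CENPF (-0.97 ± 0.28, 0.02), KIF20A (-0.89 ± 0.14, 8.74e-06) and ANLN (-0.83 ± 0.16, 0.000225). Without Bupleuri low replicate 2 the count was 19, and MKI67, ASPM and CENPF were no longer called. The doses are 360 and 14.4 µg/mL for Aconiti and 500 and 20 µg/mL for Bupleuri.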

How the results depend on the processing

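Of 484 recomputed counts of called genes 432 lay within 1.5 times the reported count, and of 2616 recomputed folds of members called in their comparison 0 changed sign while 215 lost their call. Shares of all genes tested that were called belong to the shared model, and none is given here for the alternatives. Among members not called signs did change: with the balance covariate 1 did for Aconiti high (CENPA, from 0.13 to -0.04), 4 for Aconiti medium and 10 for Aconiti low, each against vehicle. For Aconiti high against vehicle the count was 34 to 35 when 1 library was left out and 34 to 42 under the other alternatives. Counts that moved at the high dose against vehicle were 1 for Citri (DESeq2, from 0); for Cimicifugae, from 1, 2 with RLE, DESeq2, mitochondrial genes removed or the model less Citri medium replicate 1, 0 without the filter, 8 with the balance covariate, 14 on the groups alone and 0 when any library was left out; for Bupleuri, from 0, 1 with the balance and 7 on the groups alone; 2 for Yijung (balance, from 0) and 1 for Banhasasim (groups alone, from 0). For Aconiti medium, from 3, it was 6 with RLE, 0 without the filter, 23 with the balance, 10 less Citri medium replicate 1, 18 on the groups alone, 13 with DESeq2 and 0 to 1 with a library left out. For Yijung medium, from 1, it was 0 without the filter, 4 with the balance and 0 to 1 with a library left out, and for Citri medium, from 0, 0 to 10. From low to high dose it was, from 0, 3 (balance), 2 (DESeq2 and less Citri medium replicate 1) and 0 to 1 (library left out; 1 without Cimicifugae low replicate 3) for Cimicifugae and 5 (balance) for Yijung. For Aconiti high against medium it was 11 on the groups alone, from 30. Citri against Cimicifugae gave 2 (groups alone) and Yijung against Banhasasim 1 (RLE), 3 (balance), 2 (DESeq2 and less Citri medium replicate 1) and 0 to 2 (library left out, 2 without Yijung high replicate 3 and 1 without Banhasasim high replicate 3), both from 0. The Aconiti less Bupleuri interaction gave 18 on the groups alone and 19 to 30 with a library left out, and Yijung less Banhasasim 1 (balance, from 0). The cause of these moves was not tested, except that fits of the groups alone hold fewer samples.

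Correlations of same-numbered libraries, as deviations from their group means, ran from -0.377 to 0.572, and in 0 of 29 comparisons did all exceed 0.1. The highest was in Aconiti high against medium dose (0.572, 0.043 and 0.343). The lowest was in Aconiti against Bupleuri at the high doses (-0.377, -0.201 and 0.039). With 3 libraries per group, whether replicate numbers pair samples in single comparisons cannot be told from these values. With the replicate block the count for Aconiti high against vehicle was 36 and that for Cimicifugae high 0, from 1; no other count of members moved by over 1.5 times. At this depth all 44 genes held over 10 CPM in every vehicle and Aconiti high library.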
